A study of Mus musculus with 23 samples.

Results

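Of the 9350 peaks called by anti-FLAG ChIP-seq in FLAG-Zbtb11 mouse embryonic stem cells (ESCs), 1440 shared no base with a peak of the anti-Zbtb11 antibody and none with a peak of the FLAG control. These FLAG-only peaks were chosen by overlap of the 3 deposited peak lists alone. Another 7691 FLAG-Zbtb11 peaks shared at least 1 base with an antibody peak and none with the control (shared peaks), 219 met a control peak, and 1124 peaks were called with the antibody only (antibody-only peaks). Anti-FLAG ChIP was done in 3 replicates of Zbtb11FLAG/FLAG E14 cells, a single homozygous line whose endogenous Zbtb11 carries an N-terminal 3×FLAG tag, and in 2 control replicates of Zbtb11WT/WT E14 cells, the parental line without a tag. The antibody ChIP was done in 4 replicates of E14 wild-type cells. The FLAG-only and antibody-only peaks therefore differ in cell line, antibody and number of libraries, which cannot be told apart here.

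RNA-seq was done on 3 replicates each of 3 groups after 48 h of treatment. The EtOH control was Zbtb11lox/lox R26 ERt2-Cre cells given ethanol, the Zbtb11 KO was the same line given 250 nM 4-hydroxytamoxifen (4OHT), and the 4OHT control was Zbtb11WT/WT cells with a wild-type R26 locus given 250 nM 4OHT. The 3 groups thus come from 2 genotypes, and both genotype and drug separate the 4OHT control from the EtOH control. Between 14301457 and 23876604 reads per library were counted on genes. CPM are reads counted on a gene, scaled to the library total after TMM adjustment of that total between libraries. All 8 ESC markers examined were above 1 CPM in every library, with a summed level of 4212 to 4952 CPM. The 7 fibroblast markers summed to 16.2 to 26.6 CPM. Markers of endoderm, mesoderm and neural cells summed to 3.99 to 9.32, 3.48 to 5.14 and 68.5 to 132.6 CPM. Zbtb11 has no counts of its own in the annotation used, where the gene record Rpl24 spans its locus, so the knockout was not checked against the targeted gene.

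Zbtb11 is a zinc finger protein with a BTB domain, a family of DNA-binding proteins that mostly act as transcriptional regulators. ChIP-seq peaks mark stretches of DNA recovered with the protein, directly or through other chromatin proteins. Many mammalian promoters lie in CpG islands, stretches rich in CpG dinucleotides, and many of these hold the ETS motif CCGGAAG, which GABP, a regulator of nuclear-encoded mitochondrial genes, recognises together with other ETS factors. A tagged protein and an antibody against the native protein are commonly used side by side because each reagent recovers its own background.

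The sequences below show how base composition differed between promoter and intergenic FLAG-only peaks, each as the central 300 bases of the widest peak of its kind on the plus strand of mm9. Capitals mark CCGGAAG or its reverse complement CTTCCGG. None of these 3 windows met an annotated exon. The first is chr11:102179731-102180030 at the Ubtf promoter, with 24 CpGs. The second is chr19:38399422-38399721, intergenic with Lgi1 as the gene of the nearest start, with 4 CpGs. The third is chr9:62190994-62191293 at the Anp32a promoter, with 21 CpGs, from the widest promoter peak that held the motif in this window.
Ubtf: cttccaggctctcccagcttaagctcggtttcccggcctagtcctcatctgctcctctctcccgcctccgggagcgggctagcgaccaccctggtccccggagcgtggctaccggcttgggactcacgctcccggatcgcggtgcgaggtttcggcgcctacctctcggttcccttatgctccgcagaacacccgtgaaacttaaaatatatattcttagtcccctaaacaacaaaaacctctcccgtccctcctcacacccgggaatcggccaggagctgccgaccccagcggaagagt
Lgi1 (intergenic): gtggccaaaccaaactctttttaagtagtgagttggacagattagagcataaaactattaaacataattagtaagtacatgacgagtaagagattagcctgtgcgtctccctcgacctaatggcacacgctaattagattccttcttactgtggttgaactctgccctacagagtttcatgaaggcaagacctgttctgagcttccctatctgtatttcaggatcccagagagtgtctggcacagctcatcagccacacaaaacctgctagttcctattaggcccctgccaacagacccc
Anp32a: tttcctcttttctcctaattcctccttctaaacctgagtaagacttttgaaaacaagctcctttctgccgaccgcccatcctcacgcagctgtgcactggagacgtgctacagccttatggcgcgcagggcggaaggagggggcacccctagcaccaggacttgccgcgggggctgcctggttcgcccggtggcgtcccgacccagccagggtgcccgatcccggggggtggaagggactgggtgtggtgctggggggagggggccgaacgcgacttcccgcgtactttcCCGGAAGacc
The promoter windows were 61.0% and 63.7% G and C and the intergenic window 45.0%.

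Promoters were the most frequent place of FLAG-only peaks, but less so than for shared peaks. One FLAG-only peak lay on an unplaced sequence with no annotated genes, and the other 1439 were placed. A promoter was taken as 2 kb upstream to 500 bases downstream of an annotated start of transcription, and a peak counted there with any base. Promoters held 634 FLAG-only peaks (44.1%, 95% Wilson interval 41.5 to 46.6), gene bodies 359 (24.9%, 22.8 to 27.2) and intergenic DNA 446 (31.0%, 28.7 to 33.4). Among shared peaks the promoter share was 57.6% (56.5 to 58.7), higher than among FLAG-only peaks (Fisher's exact test, two-sided, adjusted p = 7.81e-20 over 18 tests of place and CpG islands). Intergenic peaks were more frequent among FLAG-only than among shared (21.4%, adjusted p = 5.19e-14) or antibody-only peaks (23.6%, adjusted p = 0.000126). The promoter share of antibody-only peaks was 45.6%, and its difference from the FLAG-only peaks did not pass the test (odds ratio 0.938, adjusted p = 0.503). Of 267 placed FLAG control peaks, 48 were at promoters and 140 (52.4%) were intergenic. Each list holds 1 set of peaks over all replicates of its ChIP with no score, so there is no error between replicates for these shares, and the tests compare lists of peaks.

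**Figure D1:**
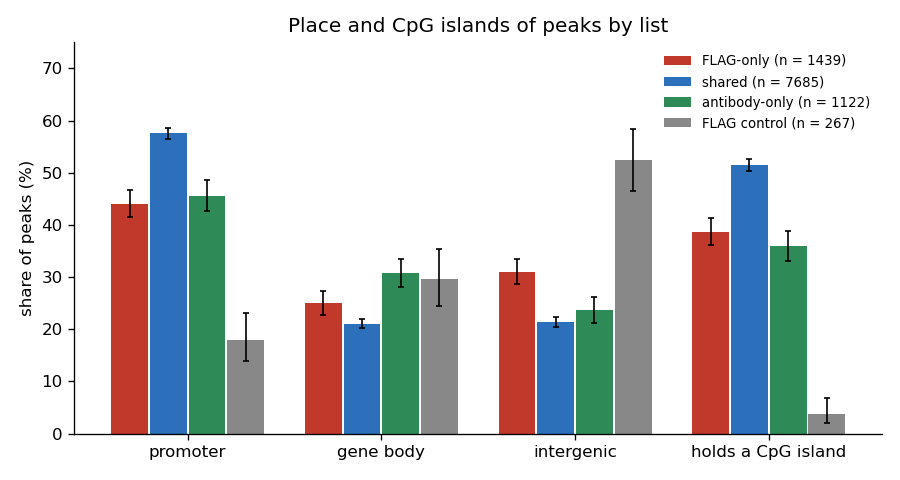
Share of peaks (%) at promoters, in gene bodies, in intergenic DNA and with a CpG island, for FLAG-only, shared, antibody-only and FLAG control peaks, with 95% Wilson intervals as error bars. The FLAG-only promoter share (44.1%) sits below that of shared peaks (57.6%) and close to that of antibody-only peaks (45.6%).

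The FLAG-only peaks were narrower than the shared peaks, a difference given as a description with no test. Their width ran from 252 to 4405 bases with a median of 827, against a median of 1158 for shared peaks, and 12.4% were under 500 bases against 4.43%. FLAG-only promoter peaks had a median width of 1105 bases, gene body peaks 708 and intergenic peaks 675. The share of FLAG-Zbtb11 peaks that were FLAG-only fell with width, from 27.4% (25.6 to 29.3) in the narrowest quartile (252 to 765 bases) to 16.7%, 11.2% and 7.63% (6.61 to 8.80) in the widest (1543 to 5814 bases).

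Among peaks of like width, no difference in promoter share passed the test. In the 4 quartiles of width, from narrow to wide, the promoter share was 20.7%, 48.8%, 66.8% and 84.5% for FLAG-only peaks and 21.9%, 45.0%, 70.2% and 84.9% for shared peaks. No quartile passed the test (Fisher's exact test, adjusted p = 0.557 to 0.826 over the 4 quartiles), and the FLAG-only share was the lower in 3 of them. Coverage moved with width as well. Over 7517 shared peaks, the Spearman correlation of width with the deposited read coverage was 0.619 to 0.704 in the 3 FLAG-Zbtb11 libraries and 0.491 to 0.601 in the 4 antibody libraries, as a description of peaks within libraries. Median FLAG-Zbtb11 coverage in the same quartiles was 32.0, 53.1, 82.8 and 147.7 normalised reads. Coverage of the FLAG-only peaks themselves was not analysed here, since the deposited coverage follows intervals that met only 3 of them.

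CpG islands were likewise less frequent in FLAG-only than in shared peaks when all widths were pooled, but not among peaks of like width. An island was scored as 500 bases or more in which G and C made up at least 55% and CpGs reached 0.65 of the number that base composition predicts (the CpG ratio). One was present in 557 FLAG-only peaks (38.7%, 36.2 to 41.3), in 51.5% of shared peaks (adjusted p = 3.81e-18), in 35.9% of antibody-only peaks (adjusted p = 0.193) and in 3.75% of FLAG control peaks. At promoters the share was 77.6% for FLAG-only and 83.6% for shared peaks (adjusted p = 0.000728). Away from promoters it was 8.07% and 7.88%, a difference that did not pass the test (adjusted p = 0.899). A wider peak has more room for an island, so the fixed central 1 kb was also scored. In that window FLAG-only peaks held an island in 17.4%, 41.2%, 70.3% and 79.3% of peaks over the 4 quartiles of width, against 13.1%, 37.6%, 64.2% and 75.5% of shared peaks. Within each quartile the FLAG-only share was thus the higher, opposite to the pooled direction, and the narrowest quartile passed the test (adjusted p = 0.0439) while the other 3 did not (0.121 to 0.271).

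**Figure D2:**
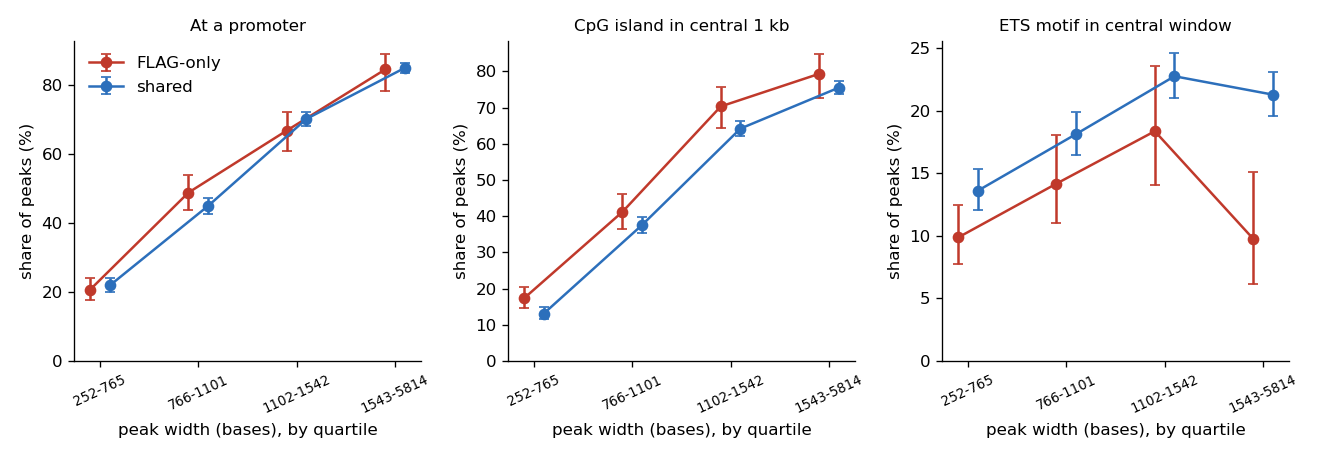
Share of peaks (%) at a promoter (left), with a CpG island in the central 1 kb (middle) and with the ETS motif CCGGAAG in the central 300 bases (right), by quartile of peak width in bases, for FLAG-only and shared peaks, with 95% Wilson intervals. The promoter lines run together, while the motif share of FLAG-only peaks is below that of shared peaks in every quartile and furthest below in the widest (9.77% against 21.3%).

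Base composition set promoter peaks apart from the rest of the FLAG-only peaks. Median G and C content was 59.9% at promoters, 50% in gene bodies and 48.3% in intergenic peaks, and the median CpG ratio was 0.728, 0.324 and 0.330. Shared promoter peaks had medians of 57.0% and 0.686. FLAG-only promoter peaks were centred near starts, with a median distance of 170.5 bases and 526 of 634 (83.0%) within 500 bases, against 87.4% of shared promoter peaks. Of these 634 peaks, 598 (94.3%) were at a protein-coding gene. Promoters on both strands were met by 97 (15.3%), fewer than the 23.3% of shared (adjusted p = 1.46e-05) and 20.5% of antibody-only promoter peaks (adjusted p = 0.0474). Of the 359 gene body peaks, 51 (14.2%) had their centre in an exon.

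**Figure D3:**
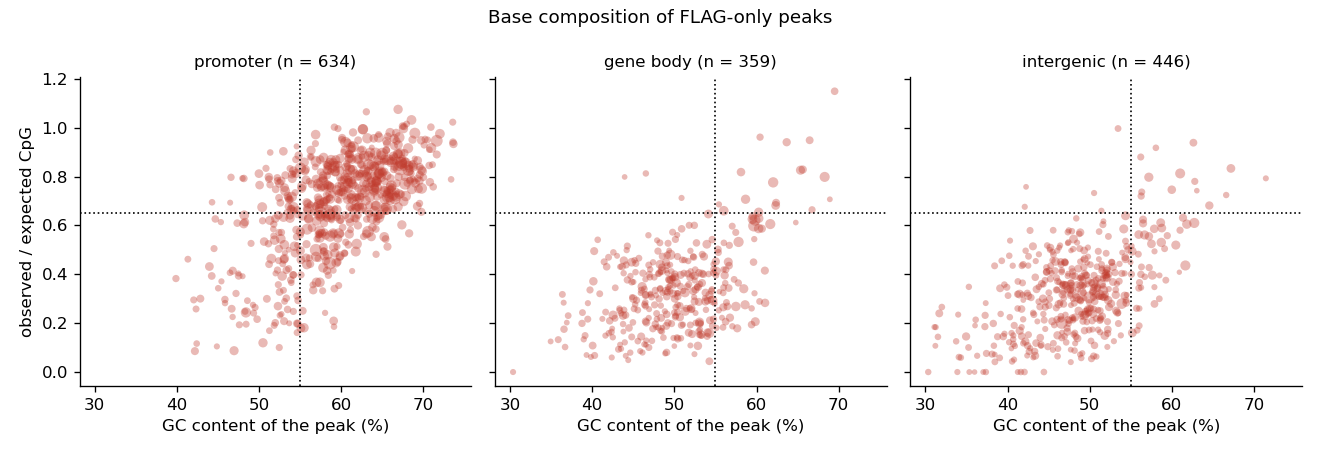
G and C content (%) against the CpG ratio (observed over expected) of each FLAG-only peak at promoters (634), in gene bodies (359) and in intergenic DNA (446), with point area rising with peak width. Dotted lines mark 55% and 0.65, and promoter peaks lie mostly to the upper right (medians 59.9% and 0.728) and the others to the lower left.

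The ETS motif was less frequent in FLAG-only than in shared peaks. CCGGAAG, on either strand, stood in the central 300 bases of 180 of 1439 FLAG-only peaks (12.5%, 10.9 to 14.3), of 19.2% of shared peaks (Fisher's exact test, adjusted p = 4.19e-09 over 12 motifs), of 8.65% of antibody-only peaks (adjusted p = 0.0245) and of 1.12% of FLAG control peaks. The order was the same at promoters, with 15.8% of FLAG-only, 24.2% of shared and 11.9% of antibody-only peaks, where the difference from shared peaks passed (adjusted p = 1.50e-05) and that from antibody-only peaks did not (adjusted p = 0.434). Away from promoters the shares were 9.94%, 12.5% and 5.90%, and neither difference passed (adjusted p = 0.627 and 0.0733). A background was taken from 300 bases, mostly upstream of the start, at all 22367 protein-coding genes on the nuclear chromosomes, expressed or not. In these windows, not centred on peaks, CCGGAAG was found in 10.8%. Unlike the promoter share, this difference was in one direction in all quartiles of width, with 9.87%, 14.2%, 18.4% and 9.77% of FLAG-only against 13.6%, 18.1%, 22.7% and 21.3% of shared peaks. It passed the test in the narrowest (adjusted p = 0.0326) and the widest quartile (adjusted p = 0.000501) and not in the middle ones (0.0863 and 0.129).

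Where present, the motif was gathered at the centre of FLAG-only peaks. The 4 central bins of 100 bases held 46.7 matches per 1000 peaks each on average, 6.56 times the 7.12 of bins at the outer edge of the 2 kb examined. The ratio was 9.61 for shared and 4.18 for antibody-only peaks. In the whole peak, 286 FLAG-only peaks held 1 match, 82 held at least 2, and no peak held more than 4. Per kb of peak there were 0.335 matches in FLAG-only, 0.452 in shared and 0.247 in antibody-only peaks.

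**Figure D4:**
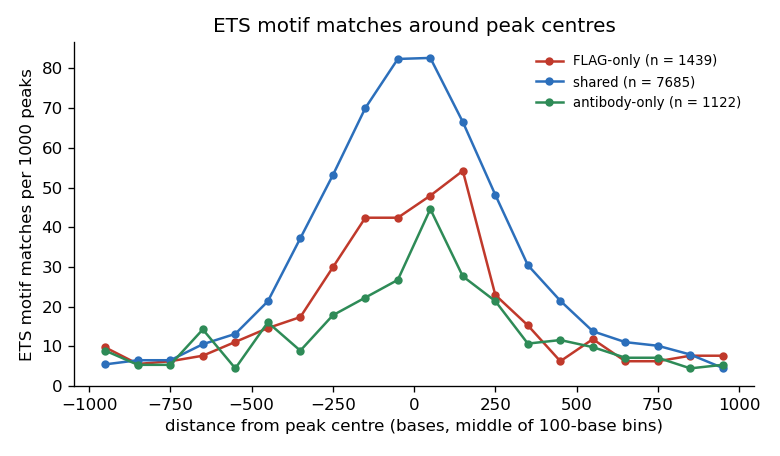
Matches of CCGGAAG on either strand per 1000 peaks in bins of 100 bases, by distance from the peak centre, for FLAG-only, shared and antibody-only peaks. All 3 lists rise at the centre, shared peaks the most (a mean of 75.4 in the 4 central bins), FLAG-only peaks next (46.7) and antibody-only peaks least (30.3).

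Of the other 11 motifs searched, the GC box GGGCGG also differed, in 32.6% of FLAG-only and 37.4% of shared peaks (adjusted p = 0.00326). Its share was 57.1% and 54.9% at promoters and 13.3% and 13.6% away from them, where neither difference passed (adjusted p = 0.845 and 0.880). To set beside the promoter shares, the background windows at protein-coding starts, not centred on peaks, held it in 43.4%. The NRF-1 motif CGCATGCG was found in 12 FLAG-only peaks (0.834%) and 1.04% of shared peaks, and the E2F motif TTCCCGCC in 42 (2.92%) and 2.73%. The AP-1 motif TGANTCA was in 6.39% and 5.83%, CCAAT in 25.4% and 25.7%, the E-box CACGTG in 6.39% and 5.99%, the Sox motif ACAAAGG in 5.91% and 5.84%, the octamer ATTTGCAT in 1.04% and 1.08%, and the YY1 motif AAGATGGCG in 1.39% and 1.33%. The cAMP response element TGACGTCA was in 0.903% and 0.976%, and TCTCGCGA in 0.556% and 0.612%. None of these 10 passed the test (adjusted p = 1.0). TTCCCGCC can overlap a GC box on the other strand, and a match is a run of letters, not an occupied site.

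Few FLAG-only peaks lay within 5 kb of an antibody peak, though no baseline for this distance was computed. The median distance to the nearest one was 59486 bases, 24 (1.67%) were within 1 kb and 106 (7.37%) within 5 kb. The closest 3 lay 11, 63 and 87 bases away, in a gene body for the first and in intergenic DNA for the others, with Thap11, Rnf144b and Gm16432 as the genes of the nearest starts, and the 3 shared peaks with the smallest overlap shared 146, 305 and 311 bases with an antibody peak. Among themselves, FLAG-only peaks were at a median of 366568 bases to the next one, and 8 had another within 1 kb. None lay within 5 kb of the Zbtb11 locus, the nearest being 99675 bases away.

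The widest FLAG-only peaks lay at CpG-rich promoters. The widest, of 4405 bases at chr11:102177679-102182083, covered the start of Ubtf, which encodes a transcription factor of RNA polymerase I. It was 67.2% G and C, and the nearest antibody peak was 4562 bases away. An antibody peak met the promoter at another start of Ubtf, so this gene had peaks of both kinds. Those next in width were at Ptprg, a receptor tyrosine phosphatase (chr14:12383986-12387995), at Dusp6, a phosphatase of ERK kinases (chr10:98723747-98727374), and at Anp32a, an acidic nuclear phosphoprotein (chr9:62189464-62192824). Ppp1r9b, which encodes spinophilin (chr11:94851995-94855070), and Crmp1, a collapsin response mediator protein (chr5:37635594-37638658), followed. All 6 held a CpG island, and 5 of them held CCGGAAG somewhere in the peak, the exception being the peak at Ptprg.

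Away from promoters the widest peaks fell into CpG-rich gene bodies and CpG-poor intergenic DNA. Those in gene bodies included peaks in Tnrc18 (2460 bases) and in Cyp26b1, which encodes a retinoic acid-degrading enzyme (2314 bases, chr6:84533124-84535437). Their CpG ratios were 0.598 and 0.622 and both held an island. The widest intergenic peaks included one 59672 bases from the start of Lgi1 (2756 bases, chr19:38398194-38400949) and one 13000 bases from that of Car4, a carbonic anhydrase (2067 bases, chr11:84757255-84759321). Their CpG ratios were 0.201 and 0.280, and neither held an island.

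A FLAG-only peak met the promoter of 770 genes, 658 of them protein-coding. An antibody peak met a promoter of 44 of these genes as well, at another place, and 726 had none. Antibody peaks of genes are all peaks called with the antibody, including those that met a FLAG-Zbtb11 peak. Among protein-coding genes 2.94% had a FLAG-only and 24.0% an antibody promoter peak. Of 77 genes of the mitochondrial ribosome 4 had a FLAG-only peak (5.19%) and 47 an antibody peak (61.0%). The 4 were Mrps24, Mrps6, Mrpl36 and Mrpl33, of which Mrpl33 had both. The next 3 lists were taken by how gene names begin, so they hold more than subunits. Of 43 Nduf genes (complex I subunits, with Ndufaf assembly factors) 2 had a FLAG-only peak (Ndufs6 and Ndufb7). Of 58 Cox, Uqcr, Atp5 and Sdh genes (complexes II to V, with assembly factors) 1 had one (Uqcrb, a complex III subunit). Of 144 Rpl and Rps genes (cytosolic ribosomal proteins, with other genes so named such as the Rps6k kinases) 2 had one (Rpl32 and Rps3). Antibody peaks were at 19, 32 and 51 genes of these 3 lists. Of 374 Zfp genes, which encode zinc finger proteins, 15 had a FLAG-only peak (4.01%). No promoter of the 38 Zbtb genes, the 67 histone genes, 15 naive pluripotency genes or 12 ETS and NRF regulator genes met a FLAG-only peak. Ndufs6 and Mrpl36 shared 1 peak, chr13:73465253-73466481, which met both promoters. The peak at Uqcrb also met the promoter of Gm10767, whose start was the nearest, and the peak at Mrps6 also that of Slc5a3.

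Motif matches at these promoters are shown with 11 bases on each side, on the plus strand of mm9 with CCGGAAG or CTTCCGG in capitals, to show where it lay at mitochondrial and ribosomal genes of the lists. They lie at chr5:31899240-31899268 (Mrpl33), chr8:86090626-86090654 (Ndufb7), chr13:67006029-67006057 (Uqcrb) and chr6:115758821-115758849 (Rpl32).
Mrpl33: gcccacaagtcCTTCCGGctcgcagaacc
Ndufb7: gcctagatgacCCGGAAGacactgaaggg
Uqcrb: ccgctgggctcCTTCCGGcagaggtccct
Rpl32: aaagggaagcaCTTCCGGctctgggtcct
The match in the peak at Uqcrb was 2 bases from the peak centre and that at Mrpl33 13 bases, against 102 bases at Ndufb7 and 231 bases at Rpl32. The peaks at Mrps24, Mrps6, Ndufs6 and Mrpl36, and Rps3 held none.

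Most protein-coding genes with a FLAG-only promoter peak were expressed. Of the 617 with no antibody peak, 542 (87.8%, 85.0 to 90.2) passed the filter on low counts. So did 4940 of 5323 (92.8%, 92.1 to 93.5) with an antibody and no FLAG-only peak, and 7673 of 16399 (46.8%, 46.0 to 47.6) with neither. The median level of the 617 in the EtOH control was 6.48 ± 0.171 CPM per kb of exon (SD, n = 3 libraries). It was 7.95 ± 0.267 for genes with an antibody and no FLAG-only peak and 0.243 ± 0.0438 with neither. The ranges of these medians over libraries in the first 2 groups (6.28 to 6.60 and 7.65 to 8.17) did not overlap. They hold the spread between libraries only and not that between genes. Over genes, the lower and upper quartiles of the 2 groups overlapped widely (1.60 to 18.6 and 2.73 to 19.8 CPM per kb). The genes differ between groups and were compared as a description.

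None of the genes with a FLAG-only promoter peak and no antibody peak was called as changed in the KO by unpaired edgeR fits. Of these genes, 558 were among the 14172 tested on replicates 2 and 3 with edgeR's quasi-likelihood test. Of the 558, 0 passed an adjusted p of 0.05, where 212 of all genes did (1.50%). At an unadjusted p under 0.05 there were 26 (4.66%), against 895 of all genes (6.32%). Their median log2 fold change was -0.01 (range -0.53 to 1.08), and that of all genes was 0.00 on the same scale. Genes with an antibody promoter peak and no FLAG-only peak held 206 of the 212 calls, with 186 lower and 20 higher of 5113 tested (4.03%), and the 40 tested genes with both kinds of peak held 0, with 2 at an unadjusted p under 0.05. With all 3 replicates 0 of the 567 tested genes with a FLAG-only and no antibody peak were called, where 129 of 14346 genes were (0.899%). Genes with neither kind of peak held 6 calls of 8461 tested on replicates 2 and 3 (0.0709%), with 399 (4.72%) at an unadjusted p under 0.05. On all 3 replicates they held 3 calls of 8603 (0.0349%).

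Fits with the replicate number as a block, which pairs the samples, called a few of the genes with a FLAG-only and no antibody peak. With replicates 2 and 3 and the block there were 3 of 558 (0.538%), where 322 of all genes were called (2.27%). Of genes with neither kind of peak, 50 of 8461 were called in that fit (0.591%). With all 3 replicates and the block there were 2 of 567 (0.353%), where 323 of all genes were called (2.25%). There, 46 of 8603 genes with neither kind of peak were called (0.535%). DESeq2 without the block called 1 of 558, where 206 of all were (1.45%), with 9 (1.61%) at an unadjusted p under 0.05 against 500 of all genes (3.53%). Pfkp, a phosphofructokinase isoform of glycolysis, was in each of these 3 sets.

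Pfkp was measured at 345.4, 268.3 and 269.0 CPM in EtOH control replicates 1 to 3 and at 304.3, 201.6 and 232.1 CPM in the KO. The groups overlapped, while each KO value was below the control of the same number. Its log2 fold change was -0.31 ± 0.08 (SE, edgeR adjusted p = 0.124), with an adjusted p of 0.00475 under the block. In the 4OHT control it was at 495.6, 319.8 and 349.9 CPM, each above the EtOH control of that number (log2 fold change 0.32 ± 0.08, edgeR adjusted p = 0.0161). Pfkp carries 2 FLAG-only peaks, at chr13:6645751-6647505 and chr13:6647698-6648806, and the nearest antibody peak was 587358 bases away. The others called under a block were Btg2, an antiproliferative gene (0.36, adjusted p = 0.0294), 1500012F01Rik (0.33, adjusted p = 0.0156) and Scd1, a fatty acid desaturase (-0.27 with all 3 replicates, adjusted p = 0.0458). Txn2, the mitochondrial thioredoxin gene, has peaks of both kinds and was called with replicates 2 and 3 (0.24, adjusted p = 0.0485). Each of these 4 was called in 1 of the block fits only, with an adjusted p of 0.0626 to 0.155 in the other. Without the block their edgeR adjusted p was 0.169 to 0.853 with replicates 2 and 3 and 1.0 with all 3.

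**Figure D5:**
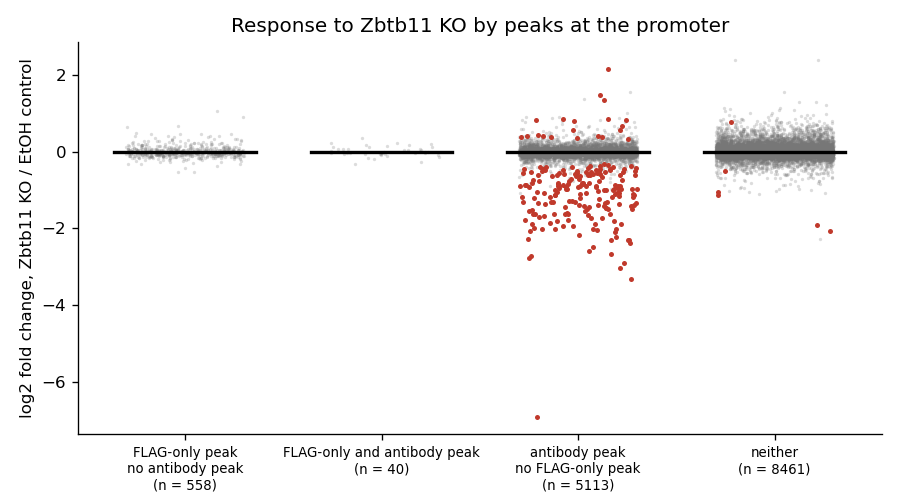
Log2 fold change of Zbtb11 KO over EtOH control (edgeR, replicates 2 and 3, no replicate block) for each tested gene, by the peaks at its promoter. Called genes (adjusted p under 0.05) are in red and medians are bars. The 558 genes with a FLAG-only peak and no antibody peak lie between -0.53 and 1.08 with no call. Of the 212 calls, 206 are at genes with an antibody peak, shared or not, and no FLAG-only peak.

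None of the genes on the mitochondrial and ribosomal lists with a FLAG-only peak was called in the KO by any fit of replicates 2 and 3 or of all 3, with or without the block, or by DESeq2. Uqcrb was at 60.8, 66.9 and 65.3 CPM in the EtOH control and 63.2, 67.8 and 63.5 CPM in the KO (log2 fold change -0.01 ± 0.07, edgeR adjusted p = 0.991). Mrpl36 was at 21.9, 35.6 and 36.3 CPM in the EtOH control and 24.1, 37.7 and 41.3 CPM in the KO, and Ndufs6 at 36.9, 45.4 and 42.9 against 36.3, 43.1 and 47.6 CPM. In all 3 of these genes the groups overlapped, and replicate 1 was the lowest of each group. Ndufb7 was at 37.3, 36.2 and 37.0 CPM in the EtOH control and at 39.6, 41.0 and 44.7 CPM in the KO, with no overlap (0.23 ± 0.09, edgeR adjusted p = 0.593). Over all tested genes 7.34% did not overlap between these groups in either direction, and 38 of the 558 (6.81%) did not. The other genes on the lists, Mrps24, Mrps6, Mrpl33, Rps3 and Rpl32, had log2 fold changes of -0.05 to 0.13 and adjusted p of 0.920 to 0.989. Of the genes at the widest peaks, Anp32a was at 197.3, 224.3 and 211.1 CPM in the EtOH control and 198.9, 197.6 and 190.5 CPM in the KO (-0.16 ± 0.06, adjusted p = 0.660), and Ubtf at 255.7, 335.5 and 330.6 against 259.3, 319.9 and 342.4 CPM (-0.01 ± 0.06, adjusted p = 0.992). Both groups overlapped for each of them.

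The 4OHT control differed from the EtOH control at genes with a FLAG-only promoter peak about as often as at genes in general. Of the 558 genes, 99 were called (17.7%), 45 lower and 54 higher, where 2420 of all 14172 genes were (17.1%), and their median log2 fold change was 0.01 (all genes 0.01). With all 3 replicates 22 of 567 were called (3.88%), where 4.06% of all genes were. The block with replicates 2 and 3 called 159, where 27.6% of all genes were called, and the block with all 3 replicates 199, where 33.6% were. Without replicate 2 or without replicate 3 the count was 0, where 13 and 24 of all genes were called. This comparison shares its EtOH control libraries with that of the KO. Rpl32 was at 901.8, 930.2 and 922.7 CPM in the EtOH control, at 946.2, 930.7 and 886.2 CPM in the KO and at 663.7, 610.1 and 623.6 CPM in the 4OHT control. It was lower in the 4OHT control with no overlap (-0.58 ± 0.07, edgeR adjusted p = 0.000167), and its KO and EtOH control values overlapped.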

How the data were processed

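Single-end ChIP-seq reads were aligned by the authors to mm9 with Bowtie (1.1.2 in the submitters' processing notes), and peaks were called with MACS2 within the IDR pipeline on all replicates of a ChIP, with blacklisted regions removed. The deposited peak lists hold positions only. The deposited coverage (signal) values are reads over consensus intervals, normalised by the authors with DiffBind. RNA-seq reads were aligned with STAR and counted with HTSeq, and the deposited counts per gene are not normalised. Between 25.3 and 31.6% of reads in a library fell on no gene.

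Peaks and promoters were joined with Python and pandas, on the GENCODE annotation and NCBIM37 (mm9) sequence, whose chromosome names and lengths match the lists. Intervals are 95% Wilson intervals, and cover counting error only. Counts were tested with edgeR 4.0.16 in R 4.3.3 (TMM, all 3 groups in 1 fit, quasi-likelihood F test, Benjamini-Hochberg over all tested genes), with DESeq2 1.42.0 as an alternative. The SE printed with an edgeR log2 fold change was derived as its absolute value over the square root of the F statistic. The genes tested were those above 1 CPM in at least 2 libraries, or in at least 3 libraries for fits of all 3 replicates. CPM for this filter were scaled to the library total without TMM. The study leaves out 1 replicate that stands apart and does not number it. Replicate 1 was taken to be that one, from earlier work on these data, and the fit of all 3 is given beside it. Same-numbered samples deviated together from their group means (r = 0.509 to 0.862 over genes), so the numbers were taken to pair the samples. Replicates 2 and 3 of different groups also correlated (r = 0.334 to 0.577), and EtOH control 2 more with 4OHT control 3 (0.577) than with 4OHT control 2 (0.509). The labels give biological replicates of 1 line per genotype. The scripts were tested on simulated data.

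The FLAG-only peaks and the gene lists were chosen with earlier results of these data known. Genes and regions were named as the 6 widest promoter, 3 widest gene body and 3 widest intergenic peaks, the called genes, and the members of the lists. Of the regions so chosen, 2 and the sequence of 1 other are not reported here. Genes called under an alternative fit, and the non-overlapping Ndufb7, were named after their values were seen. Alternatives changed the overlap rule, the promoter, the island and the window of the motifs, and for counts the replicates, the block, the tool, the scaling and the filter. Input libraries were not used here.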

Additional observations from a re-analysis of the deposited data

How the results depend on the processing

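The promoter share of FLAG-only peaks stayed between 40.5% and 45.7%, and below that of shared peaks past the threshold, when overlap had to cover 50% of both peaks, when peaks within 1 kb of an antibody peak were dropped, and under 3 other definitions of a promoter. The CpG island share kept its direction and its call under all 4 alternatives, and was 64.9% against 70.0% with looser limits (200 bases, 50% G and C, ratio 0.6). Of the 12 motifs, 2 differed from shared peaks in the central 300 and in 500 bases, and 6 in the whole peak, where wider peaks hold more sequence. CCGGAAG was the less frequent in FLAG-only peaks in each window (18.4% against 27.6% in 500 bases).

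For the genes with a FLAG-only promoter peak and no antibody peak, KO calls numbered 3 and 2 under the replicate block (replicates 2 and 3, and all 3), 1 with DESeq2, and 0 in the other settings. Without replicate 2 or without replicate 3 both the KO and the 4OHT control counts were 0, where 13 and 21 of all genes were called in the KO. The 4OHT control count was 99, and moved to 22 with all 3 replicates and to 159 and 199 under the block. It was 67 with DESeq2 (11.9% of all genes called), 98 with library size scaling (17.1%) and 97 with promoters of 1 kb on each side. With no filter it was 78 of 694 genes (11.2%), against 7.92% of all genes. Without replicate 2 and without replicate 3, 13 and 24 of all genes were called in the 4OHT control. Scaling by library size moved the median of all genes in the KO from 0.00 to 0.05. Depth per peak is not in the lists, so no minimum detectable share was set.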

Other observations

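FLAG-only peaks were spread over 20 chromosomes, and their share of FLAG-Zbtb11 peaks ran from 12.8% (51 of 399, 95% Wilson interval 9.86 to 16.4) on chromosome 15 to 20.5% (67 of 327, 16.5 to 25.2) on chromosome 14. Promoters of 33 lincRNA, 18 miRNA, 9 snoRNA and 8 snRNA genes met a FLAG-only peak. The peaks at Rps3 and Rpl32 also met the promoters of Snord15a and Snora7a, snoRNA genes within these loci, and the peak at 1500012F01Rik those of Snord12 and Znfx1, so a peak there belongs to no single gene.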
